A study of Mus musculus with 28 samples.

Results

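The neuregulin and ErbB genes are the growth factors of the epidermal growth factor (EGF) family and the 4 receptor tyrosine kinases that bind them. Here 10 of them were followed in the growing mouse heart after myocardial infarction (MI): the ligand genes *Nrg1*, *Nrg2*, *Nrg4*, *Hbegf*, *Areg* and *Ereg*, and the receptor genes *Egfr*, *Erbb2*, *Erbb3* and *Erbb4*. They were picked by symbol alone, and each symbol matched 1 of the 45318 gene rows. All 10 had enough counts to be tested at the 3-day follow-up and 9 at the 21-day follow-up, where *Areg* was left untested. The RNA came from the left ventricular wall remote from the infarct of male Hsd:ICR(CD-1) mice, an outbred stock, with no transgene in any group. MI was made by ligating the left anterior descending coronary artery (LAD), and sham mice went through surgery without the ligation. Mice were operated at postnatal day 1, when the mouse heart still regenerates (1d-SHAM and 1d-MI), or at day 7, when it no longer does (7d-SHAM and 7d-MI). They were sampled 3 days later, at 4 or 10 days of age (groups with the suffix + 3, 4 libraries each), or 21 days later, at 22 or 28 days of age (suffix + 21, 3 libraries each). Each group is therefore defined by age at surgery, age at sampling and operation together, and setting 7d-MI beside 1d-MI mixes age with injury.

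ErbB receptors work in pairs. NRG1 and NRG2 bind ErbB3 and ErbB4, NRG4 binds ErbB4, amphiregulin (*Areg*) binds EGFR, and HB-EGF (*Hbegf*) and epiregulin (*Ereg*) bind both EGFR and ErbB4. ErbB2 has no ligand of its own and is the preferred partner of the other receptors, and ErbB3 has a nearly inactive kinase and signals through its partner. Most of the ligands are made as membrane proteins and are set free by ADAM proteases. In the heart, NRG1 comes largely from endothelium and endocardium and acts on cardiomyocytes through ErbB4 and ErbB2. This route is needed for trabeculation in the embryo, and it is known for its role in the division of cardiomyocytes around birth and in the protection of the adult myocardium.

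On GRCm38 the ligand genes are *Nrg1* (ENSMUSG00000062991, chr8:31814551-32884029), *Nrg2* (ENSMUSG00000060275, chr18:36017652-36197380), *Nrg4* (ENSMUSG00000032311, chr9:55220222-55326844), *Hbegf* (ENSMUSG00000024486, chr18:36504927-36515805), *Areg* (ENSMUSG00000029378, chr5:91139599-91148432) and *Ereg* (ENSMUSG00000029377, chr5:91074622-91093646). The receptor genes are *Egfr* (ENSMUSG00000020122, chr11:16752203-16918158), *Erbb2* (ENSMUSG00000062312, chr11:98412470-98437716), *Erbb3* (ENSMUSG00000018166, chr10:128567523-128589652) and *Erbb4* (ENSMUSG00000062209, chr1:68032186-69108059). *Areg* and *Ereg* are neighbours on chromosome 5.

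Libraries held 33077962 to 51942648 counts at 3 days and 40514177 to 168550985 at 21 days, and levels are given as counts-per-million (CPM), scaled within a follow-up by TMM, edgeR’s trimmed mean method. The 3-day and 21-day libraries were made with different kits and instruments, so no level is compared between them. Cardiomyocyte markers (*Myh6*, *Tnnt2*, *Tnni3*, *Actc1*, *Myl2* and *Ryr2*) summed to between 7370 and 27020 CPM in every library. Summed macrophage and monocyte markers ran from 95.9 to 160 CPM in 7d-MI + 3 and from 13.9 to 61.3 CPM in the other 3-day groups. The number that opens a library's title is shared by the whole of 7d-SHAM + 3 and splits 1d-SHAM + 3 into a pair numbered 1078 and a pair numbered 1103. In 1d-MI + 3 it is 1059 for replicate 1 and 1086 for the others, and in 7d-MI + 3 it is 1077, 1088, 1090 and 1090. It is the same within each 21-day group. No number occurs in more than 1 group, so group and title number cannot be told apart at 21 days and are not fully separable at 3 days. All differences from 7d-SHAM + 3 rest on 1 title number on that side. Counts on chemosensory receptor genes, which the heart should not transcribe, gave a background of 0.384 to 3.46 counts per kb at 3 days and 0.554 to 10.4 at 21 days. These counts are not scaled for library size, and the 10.4 was in the library with the most counts. At 3 days the background was 0.384 to 0.637 in the day-7 groups and 1.16 to 3.46 in 1d-MI + 3. In 1d-SHAM + 3 it was 1.96 and 1.84 in the pair numbered 1078, and 0.703 and 0.420 in the pair numbered 1103. The median log2 fold change over the 20345 genes tested at 3 days was -0.13 for 7d-MI + 3 against 1d-MI + 3 and -0.13 for 7d-SHAM + 3 against 1d-SHAM + 3, and 0.06 and 0.08 for MI against sham at day 1 and day 7. With upper-quartile scaling the first of these medians was -0.37. Each library has its own code in its title, but the labels do not state that the codes are animals, so p-values measure the spread between these samples.

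The stretch just before the transcription start is shown for *Egfr* and *Erbb4*, because these receptors moved apart after MI at day 7, and for *Areg*, 1 of 3 ligand genes that were lower after MI at day 7 than after MI at day 1. Each is the 250 bases before the start in RefSeq (GRCm38.p6), written 5′ to 3′ on the strand of the gene, with matched motifs in capitals. RefSeq windows were at hand for 5 of the 10 genes.
*Egfr*, chr11:16751953-16752202, plus strand: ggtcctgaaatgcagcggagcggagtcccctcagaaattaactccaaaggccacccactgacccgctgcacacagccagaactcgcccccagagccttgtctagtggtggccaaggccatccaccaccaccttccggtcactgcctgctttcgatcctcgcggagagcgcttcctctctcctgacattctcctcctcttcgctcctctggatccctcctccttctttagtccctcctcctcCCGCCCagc
*Erbb4*, chr1:69108060-69108309, minus strand: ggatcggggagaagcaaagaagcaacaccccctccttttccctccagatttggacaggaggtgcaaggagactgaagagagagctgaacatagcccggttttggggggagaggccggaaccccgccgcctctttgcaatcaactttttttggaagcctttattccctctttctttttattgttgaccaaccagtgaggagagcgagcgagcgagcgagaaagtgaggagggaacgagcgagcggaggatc
*Areg*, chr5:91139349-91139598, plus strand: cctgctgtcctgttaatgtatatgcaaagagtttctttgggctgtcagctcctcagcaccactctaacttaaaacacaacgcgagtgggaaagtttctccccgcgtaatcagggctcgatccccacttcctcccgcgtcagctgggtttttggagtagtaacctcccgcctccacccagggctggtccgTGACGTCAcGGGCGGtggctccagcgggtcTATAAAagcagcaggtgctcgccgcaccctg
The motifs searched on both strands were the AP-1 site (TGANTCA), the cyclic AMP response element (TGACGTCA), the E-box (CACGTG), the GC box (GGGCGG) and the TATA box (TATAAA), none of which contains another. The *Areg* window held a cyclic AMP response element, a GC box and a TATA box, 1 match each. The *Egfr* window held 1 GC box, read on the other strand, and the *Erbb4* window held no match. Among 32536 windows of the same length over all genes, 1.56% held the cyclic AMP response element, 33.0% the GC box, 12.3% the TATA box, 6.73% the AP-1 site and 6.04% the E-box. A match is a run of letters, not a measured site.

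Per kb of exon, *Erbb4* was the most abundant of the 10 genes in both sham groups at 3 days. Its level was 3.33 ± 0.44 (SD, n = 4) RPKM, the TMM-scaled CPM per kb of exon, in 1d-SHAM + 3 and 4.46 ± 0.61 in 7d-SHAM + 3. *Hbegf* followed at 2.59 ± 0.75 and 2.87 ± 0.16. The ranges of these 2 genes overlapped in 1d-SHAM + 3 and were separate in 7d-SHAM + 3. In both MI groups at 3 days *Hbegf* had the highest mean and *Nrg1* the next, at 4.72 ± 2.1 and 2.34 ± 1.1 RPKM in 1d-MI + 3 and 13.9 ± 3.7 and 4.25 ± 1.7 in 7d-MI + 3. *Nrg1* and *Erbb4* overlapped in 1d-MI + 3, and *Hbegf* was clear of all others in 7d-MI + 3. *Egfr* was the eighth in both day-1 groups, at 0.599 ± 0.062 and 0.663 ± 0.11 RPKM, and the third in 7d-MI + 3, at 2.68 ± 0.23. *Erbb2* and *Erbb4* were alike in mean level in 7d-MI + 3, at 1.49 and 1.5 RPKM, but *Erbb4* spread over 0.875 to 2.82 and *Erbb2* over 1.35 to 1.73. At 21 days *Hbegf* ranked first in all 4 groups, at 3.67 to 8.37 RPKM, and no other member had a group mean above 1.97. *Nrg2*, *Ereg* and *Areg* were the 3 lowest genes in all 4 groups at 21 days.

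*Ereg*, whose product epiregulin binds EGFR and ErbB4, was the ligand gene with the steepest difference between MI and sham at day 7. It measured 0.204, 0.186, 0.0512 and 0.0543 CPM in 7d-SHAM + 3, and 5.38, 12.4, 4.23 and 7.51 CPM in 7d-MI + 3. The 2 groups were far apart, and the sham values rest on only 2 to 6 counts a library against 216 to 639 after MI. The log2 fold change was 5.93 (SE 0.60, adjusted p = 7.87e-07, edgeR's quasi-likelihood test, adjusted over all genes by Benjamini-Hochberg, as for every adjusted p below). After surgery at day 1 it measured 0.518, 0.782, 0.310 and 0.333 CPM in 1d-SHAM + 3, and 1.49, 1.81, 0.476 and 2.97 CPM in 1d-MI + 3. One MI library lay within the sham range, and the log2 fold change of 1.77 (SE 0.48, adjusted p = 0.0328) lost its call in 11 of 21 alternatives. Among them were leaving out replicate 1, 3 or 4 of 1d-SHAM + 3 and replicate 1, 2 or 4 of 1d-MI + 3, with adjusted p of 0.0595 to 0.106. The MI effect on *Ereg* was larger at day 7 than at day 1 by 4.15 on the log2 scale (SE 0.77, adjusted p = 0.00208). Between the shams *Ereg* was lower in 7d-SHAM + 3 (log2 fold change -2.03, SE 0.63, adjusted p = 0.0316). That call ended when the 1d-SHAM + 3 pair numbered 1103 stood alone (adjusted p = 0.406) and without replicate 1 or 2 of 1d-SHAM + 3 or replicate 3 or 4 of 7d-SHAM + 3 (0.0710, 0.110, 0.0967 and 0.0963), and with the title number as a random block in limma-voom (0.515).

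*Nrg1*, the main cardiac neuregulin, was higher after MI at both ages. In 1d-SHAM + 3 it measured 1.71, 1.18, 1.28 and 2.03 CPM, and in 1d-MI + 3 5.59, 3.19, 3.04 and 7.83 CPM. All 4 MI libraries were above all 4 shams (log2 fold change 1.67, SE 0.32, adjusted p = 0.00506). In 7d-SHAM + 3 it measured 1.09, 1.05, 1.69 and 1.00 CPM, and in 7d-MI + 3 6.57, 13.7, 5.84 and 9.61 CPM, again without overlap. The log2 fold change there was 2.88 (SE 0.34, adjusted p = 2.41e-06), a 7.34-fold difference. The 2 MI effects differed by 1.21 on the log2 scale (SE 0.45), which did not pass (adjusted p = 0.0838). Compared directly, 7d-MI + 3 was above 1d-MI + 3 by 0.86 (SE 0.31, adjusted p = 0.0289), with overlapping libraries, and upper-quartile scaling ended that call (adjusted p = 0.103), as did leaving out replicate 2 or 3 of 1d-MI + 3 (0.0950 and 0.0793) or replicate 2 or 4 of 7d-MI + 3 (0.136 and 0.0550). It was kept in 11 of 19 alternatives, with adjusted p up to 0.154. The exons of *Nrg1* overlap those of *Gm26578* on the other strand, and the strand setting of the counting is not given in the sources used here.

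*Hbegf*, the gene of HB-EGF, rose after MI at day 7. The 4 shams lay close together at 6.59, 7.37, 6.76 and 6.51 CPM, and the 7d-MI + 3 libraries measured 24.8, 43.1, 26.6 and 37.4 CPM. The difference was 4.84-fold (log2 fold change 2.28, SE 0.27, adjusted p = 4.78e-06). After surgery at day 1 it measured 7.88, 4.19, 7.42 and 5.13 CPM in shams and 11.6, 6.30, 9.09 and 17.8 CPM in 1d-MI + 3. These groups overlapped, and the log2 fold change of 0.86 (SE 0.27) stood at the threshold, at adjusted p = 0.0505, passing it in 9 of 21 alternatives. The MI effect was larger at day 7 than at day 1 by 1.41 (SE 0.37, adjusted p = 0.0180). That difference passed in 25 of 28 alternatives, with adjusted p up to 0.112. With the 1d-SHAM + 3 pair numbered 1078 alone its adjusted p was 0.0566. The 7d-MI + 3 libraries also all lay above the 1d-MI + 3 libraries, on the log2 scale by 1.56 (SE 0.26, adjusted p = 0.000192).

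*Areg*, *Nrg2* and *Nrg4* had lower levels after MI at day 7 than after MI at day 1. *Areg* measured 0.628, 1.32, 3.12 and 1.94 CPM in 1d-MI + 3 and 0.334, 0.541, 0.235 and 0.564 CPM in 7d-MI + 3, without overlap. Its log2 fold change was -2.06 (SE 0.70, adjusted p = 0.0222), and it did not pass without replicate 3 of 1d-MI + 3 (adjusted p = 0.0812) or without replicate 1 or 3 of 7d-MI + 3 (0.0528 and 0.0588). Neither MI group differed from its own shams in *Areg* by the test (adjusted p = 0.254 at day 1 and 0.529 at day 7). Between the shams the log2 fold change was -1.54 (SE 0.73), which did not pass (adjusted p = 0.130).
*Nrg4*, whose product acts on ErbB4 and is best known as a signal from fat, measured 5.93, 8.26, 8.69 and 7.62 CPM in 1d-MI + 3 and 4.4, 3.96, 3.92 and 4.84 CPM in 7d-MI + 3. The log2 fold change was -0.83 (SE 0.20, adjusted p = 0.00284) and passed in 19 of 19 alternatives. Neither MI group differed from its own shams in *Nrg4* by the test, with log2 fold changes of 0.03 (SE 0.20, adjusted p = 0.941) at day 1 and -0.22 (SE 0.20, adjusted p = 0.446) at day 7. The difference of these 2 MI effects, -0.25 (SE 0.28, adjusted p = 0.632), did not pass. In 1d-SHAM + 3 it was 10.2 and 8.94 CPM in the pair numbered 1078 and 5.58 and 5.09 in the pair numbered 1103, so its lower level in 7d-SHAM + 3 (log2 fold change -0.59, SE 0.20, adjusted p = 0.0458) was lost with the second pair alone, at a log2 fold change of -0.10 and adjusted p = 0.935. This call was kept in only 7 of 20 alternatives and ended without replicate 1 or 2 of 1d-SHAM + 3 (0.179 and 0.146), without any 1 library of 7d-SHAM + 3 (0.0862 to 0.102) and with the random block in limma-voom (0.232). Exons of *Nrg4* overlap those of *Fbxo22* on the other strand.
*Nrg2* was near 0 at 3 days. It had 52, 72, 1 and 29 counts in the 4 libraries of 1d-MI + 3 and 2, 0, 0 and 2 counts in 7d-MI + 3. The 3 high libraries had receptor-gene backgrounds of 2.48, 3.46 and 1.72 counts per kb against 0.506 to 0.637 in 7d-MI + 3, and the log2 fold change was -5.16 (SE 1.37, adjusted p = 0.00546). With that background subtracted from the counts *Nrg2* still passed (adjusted p = 0.00912), but with the 2 lower-background libraries of 1d-MI + 3 alone it did not (0.111), nor with the title number as a random block in limma-voom (0.0701). It passed in 15 of 17 alternatives. Neither MI group differed from its own shams in *Nrg2* by the test (adjusted p = 0.296 at day 1 and 0.146 at day 7).

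**Figure D1:**
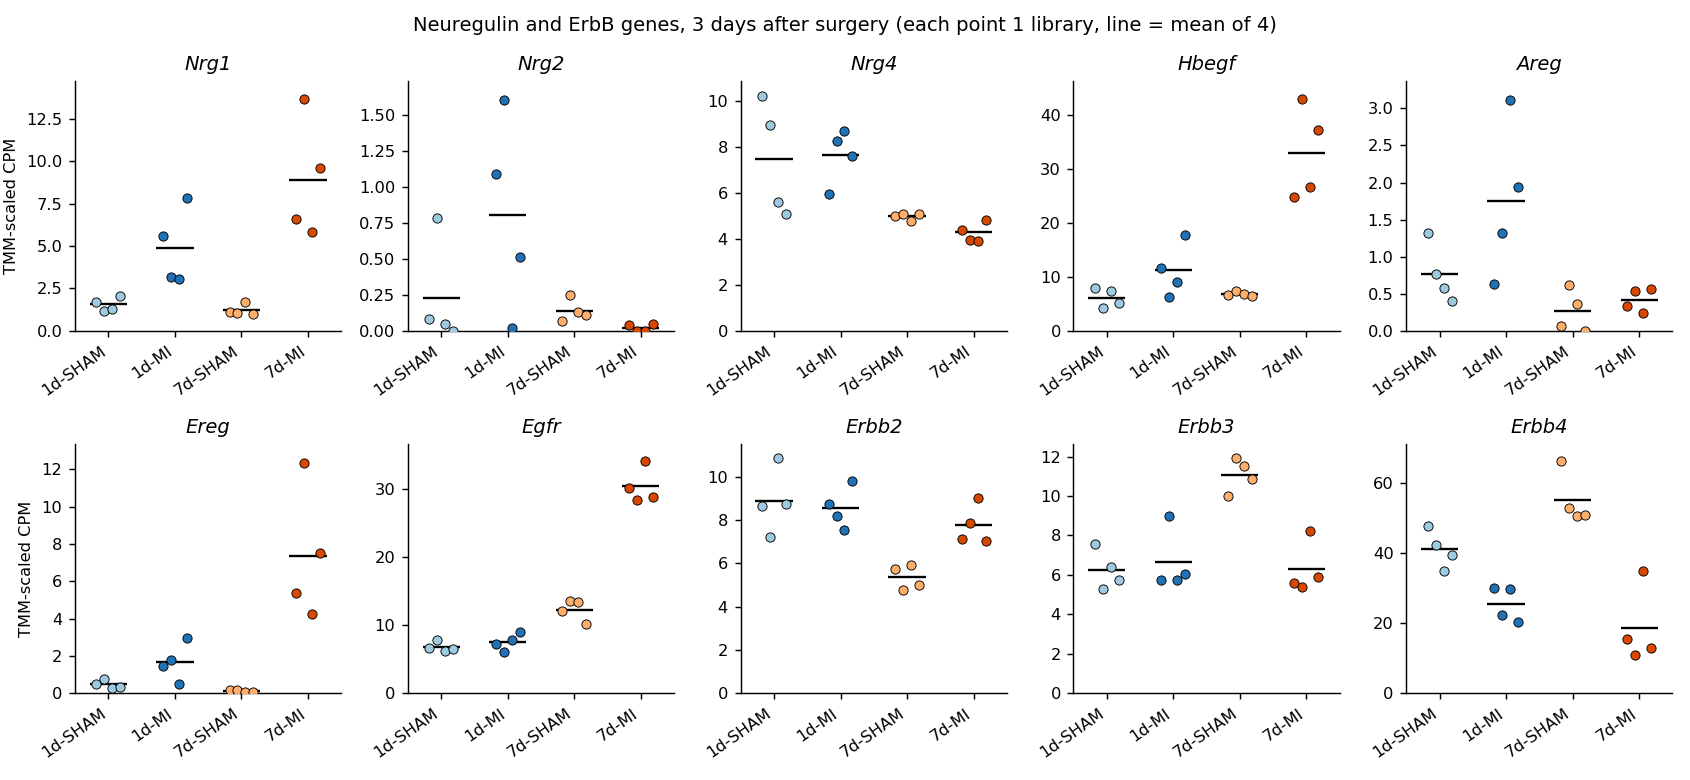
TMM-scaled CPM of the 10 genes at 3 days after surgery, with 1 point per library, grouped by age at surgery and operation, and a line at the mean of 4 libraries; each panel has its own linear axis from 0. In 7d-MI + 3 the *Egfr* points lie at 28.3 to 34.1 CPM, above all other groups, and 3 of the 4 *Erbb4* points lie below all other libraries.

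*Egfr*, the receptor of EGF, HB-EGF, epiregulin and amphiregulin, was the member whose calls moved least with the settings. It measured 6.67, 7.78, 6.16 and 6.53 CPM in 1d-SHAM + 3 and 7.25, 6.05, 7.78 and 8.94 CPM in 1d-MI + 3, and these groups overlapped (log2 fold change 0.15, SE 0.14, adjusted p = 0.510). In 7d-SHAM + 3 it measured 12, 13.6, 13.4 and 10.1 CPM, all above the younger shams (log2 fold change 0.85, SE 0.14, adjusted p = 0.000381). In 7d-MI + 3 it reached 30.1, 28.3, 34.1 and 28.8 CPM, 2.47-fold above its shams (log2 fold change 1.31, SE 0.14, adjusted p = 9.87e-07) and 4.03-fold above 1d-MI + 3 (log2 fold change 2.01, SE 0.15, adjusted p = 3.80e-08). The MI effect was larger at day 7 than at day 1 by 1.16 (SE 0.20, adjusted p = 0.00109). The last 4 of these differences passed in every alternative run, with the interaction at log2 0.93 to 1.26 over 28 alternatives.

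*Erbb4*, the receptor through which NRG1 acts on cardiomyocytes, went the other way. In 7d-SHAM + 3 it measured 66.3, 52.8, 50.5 and 50.7 CPM, and in 7d-MI + 3 15.4, 10.8, 34.8 and 13 CPM. All MI libraries were below all shams, and the mean was 2.97-fold lower (log2 fold change -1.57, SE 0.28, adjusted p = 0.000264). Replicate 3 of 7d-MI + 3 stood apart from the other 3, and without it the log2 fold change was -2.06. The summed cardiomyocyte markers of replicate 3 were 23484 CPM, against 13862 to 15510 CPM in the other 3 MI libraries and 23684 to 26558 CPM in the shams. In whole tissue, fewer cells of a type and less RNA per cell cannot be told apart, and the part of the cardiomyocyte share in this result was not tested. After surgery at day 1, *Erbb4* measured 47.8, 42.3, 34.9 and 39.4 CPM in shams and 30.1, 22.3, 29.7 and 20.3 CPM in 1d-MI + 3, without overlap, but the log2 fold change of -0.68 (SE 0.27) did not pass (adjusted p = 0.117). Neither the difference between the 2 MI effects (-0.89, SE 0.38, adjusted p = 0.137) nor that between the MI groups (-0.47, SE 0.27, adjusted p = 0.175) passed. Without replicate 3 of 7d-MI + 3 both did, at log2 -1.37 (adjusted p = 0.00108) and -0.96 (adjusted p = 0.000334). They passed in only 2 of 28 and 2 of 19 alternatives.

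*Erbb2* and *Erbb3*, the receptors that need a partner, differed between the shams and between MI and sham at day 7, each time in opposite directions. *Erbb2* measured 8.66, 7.21, 10.9 and 8.76 CPM in 1d-SHAM + 3 and 5.74, 4.77, 5.94 and 4.99 CPM in 7d-SHAM + 3 (log2 fold change -0.73, SE 0.16, adjusted p = 0.00327). The sham difference passed in 19 of 20 alternatives and was lost with the title number as a random block in limma-voom (adjusted p = 0.0634). In 7d-MI + 3 it measured 7.13, 7.87, 9.01 and 7.03 CPM, all above the 7d-SHAM + 3 libraries (log2 fold change 0.53, SE 0.16, adjusted p = 0.0120). That call was lost without a filter on low counts (adjusted p = 0.0530) and with the same block (adjusted p = 0.0948). *Erbb3* ran the reverse course, from 7.56, 5.31, 6.42 and 5.76 CPM in 1d-SHAM + 3 to 9.99, 11.9, 11.5 and 10.9 CPM in 7d-SHAM + 3 (log2 fold change 0.82, SE 0.18, adjusted p = 0.00368). In 7d-MI + 3 it was back at 5.61, 5.38, 8.23 and 5.90 CPM (log2 fold change against 7d-SHAM + 3 -0.82, SE 0.18, adjusted p = 0.00139). The MI effects at the 2 ages differed by -0.90 (SE 0.26, adjusted p = 0.0242), a call kept in 17 of 28 alternatives. It ended, at adjusted p of 0.0517 to 0.0661, without replicate 2 of 1d-SHAM + 3, of 1d-MI + 3 or of 7d-SHAM + 3, replicate 3 of 7d-SHAM + 3, or replicate 1, 2 or 4 of 7d-MI + 3. Between 7d-MI + 3 and 1d-MI + 3 neither gene differed by the test, with log2 fold changes of -0.14 (SE 0.15) and -0.08 (SE 0.18).

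The comparison of 7d-MI + 3 with 7d-SHAM + 3 asks what infarction did to the remote wall once regeneration had closed. *Ereg*, *Nrg1*, *Hbegf*, *Egfr* and *Erbb2* rose and *Erbb4* and *Erbb3* fell, so 7 of the 10 genes passed. In all 34.0% of the 20345 genes tested passed in this comparison, and the 7 of 10 are to be read against that share. The median log2 fold change was 0.60 over the 10 genes and 0.08 over all genes. In the same comparison 5 of 6 macrophage and monocyte markers and 4 of 4 neutrophil markers rose and 4 of 6 cardiomyocyte markers fell. Summed neutrophil markers ran from 29.6 to 62.0 CPM in 7d-MI + 3 and from 2.17 to 4.01 CPM in 7d-SHAM + 3, and their part in the differences of the 7 genes was not tested.

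The comparison of 1d-MI + 3 with 1d-SHAM + 3 asks the same in the regenerating heart. Only *Nrg1* and *Ereg* rose and none of the 10 genes fell by the test, 2 of 10 against 8.46% of all genes. The 4 neutrophil markers rose here as well, with sums of 18.6 to 23.2 CPM after MI and 3.17 to 6.68 CPM in shams, and 2 of 6 macrophage and monocyte markers rose. With the title number as a random block in limma-voom none of the 10 passed, at adjusted p = 0.0740 for *Nrg1* and 0.252 for *Ereg*.

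Between the MI groups, 7d-MI + 3 against 1d-MI + 3, *Egfr*, *Ereg*, *Hbegf* and *Nrg1* were higher and *Nrg2*, *Areg* and *Nrg4* lower in the older mice, 7 of 10 against 43.0% of all genes. The median log2 fold change of the 10 genes, -0.11, lay next to the -0.13 of all genes. Summed fibroblast markers, at 1363 to 1704 CPM in 7d-MI + 3 and 468 to 733 CPM in 1d-MI + 3, moved with this comparison, and their part in it was not tested. Between the shams, 7d-SHAM + 3 against 1d-SHAM + 3, *Egfr* and *Erbb3* were higher and *Erbb2*, *Ereg* and *Nrg4* lower in the older mice, 5 of 10 against 20.3% of all genes. With the title number as a random block in limma-voom only *Egfr* and *Erbb3* passed. There 4 of 6 cardiomyocyte and 4 of 5 fibroblast markers were higher too, and their part was not tested. The MI effect itself differed between the 2 ages at 3 days for *Egfr*, *Ereg*, *Hbegf* and *Erbb3*, 4 of 10 against 13.1% of all genes. Each of these comparisons shares samples with the others.

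**Figure D2:**
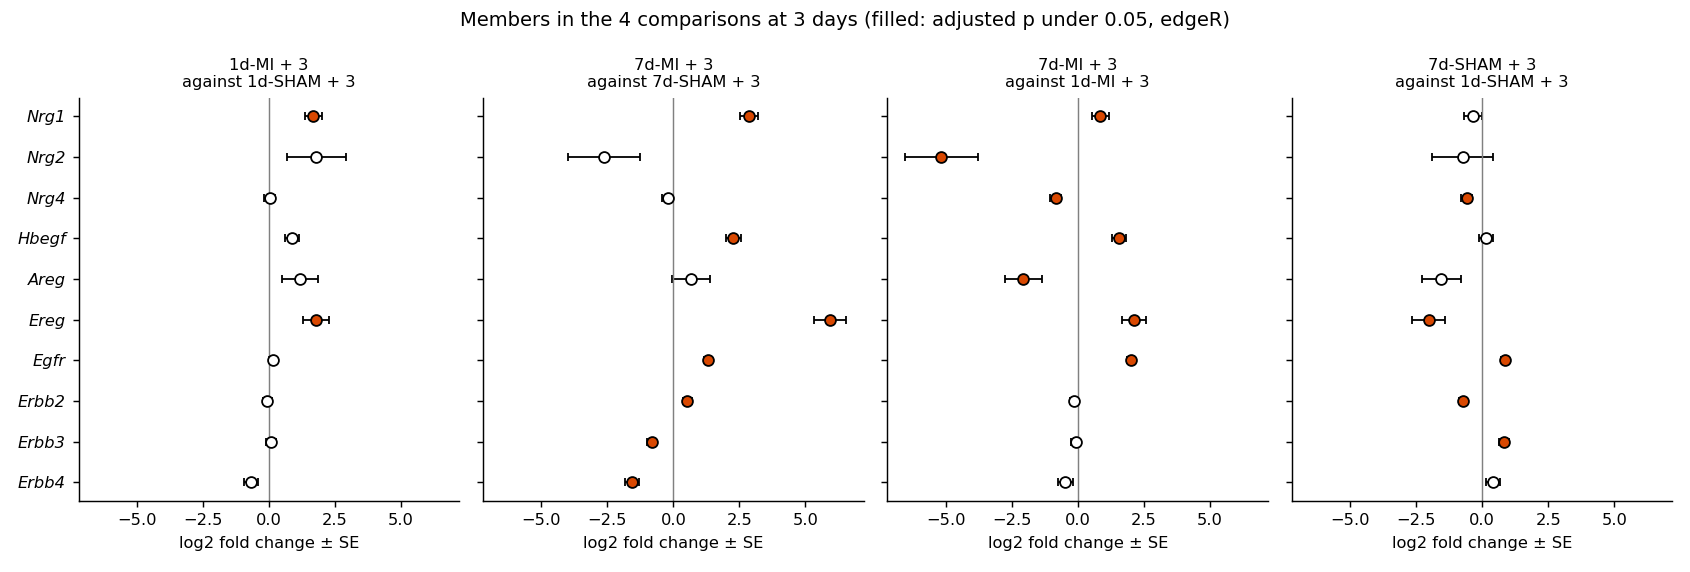
Log2 fold changes with their standard errors for the 10 genes in 4 comparisons at 3 days; filled points passed edgeR's test at an adjusted p under 0.05. In 7d-MI + 3 against 7d-SHAM + 3 the filled points run from *Ereg* at 5.93 to *Erbb4* at -1.57, and in 1d-MI + 3 against 1d-SHAM + 3 only *Nrg1* and *Ereg* are filled.

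Library by library, the extremes of the ligand genes and of *Erbb4* fell together in some MI libraries at 3 days, but the full orders were not opposite. In 7d-MI + 3, replicate 2 had the highest *Nrg1*, *Hbegf* and *Ereg* (13.7, 43.1 and 12.4 CPM) and the lowest *Erbb4* (10.8 CPM). Replicate 3 of that group had the lowest *Nrg1* and *Ereg* (5.84 and 4.23 CPM) and the highest *Erbb4* (34.8 CPM), while the lowest *Hbegf*, 24.8 CPM, was in replicate 1. In 1d-MI + 3, replicate 4 had the highest *Nrg1*, *Hbegf* and *Ereg* (7.83, 17.8 and 2.97 CPM) and the lowest *Erbb4* (20.3 CPM). Replicate 1 of 1d-MI + 3 had the highest *Erbb4* of its group, 30.1 CPM, and also its next highest *Nrg1* and *Hbegf*, 5.59 and 11.6 CPM. Replicate 4 also had the highest summed macrophage and monocyte markers of its group, 61.3 CPM against 22.0 to 25.0 CPM, whereas in 7d-MI + 3 the highest sum, 160 CPM, belonged to replicate 1. With 4 libraries in a group no relation could be tested.

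**Figure D3:**
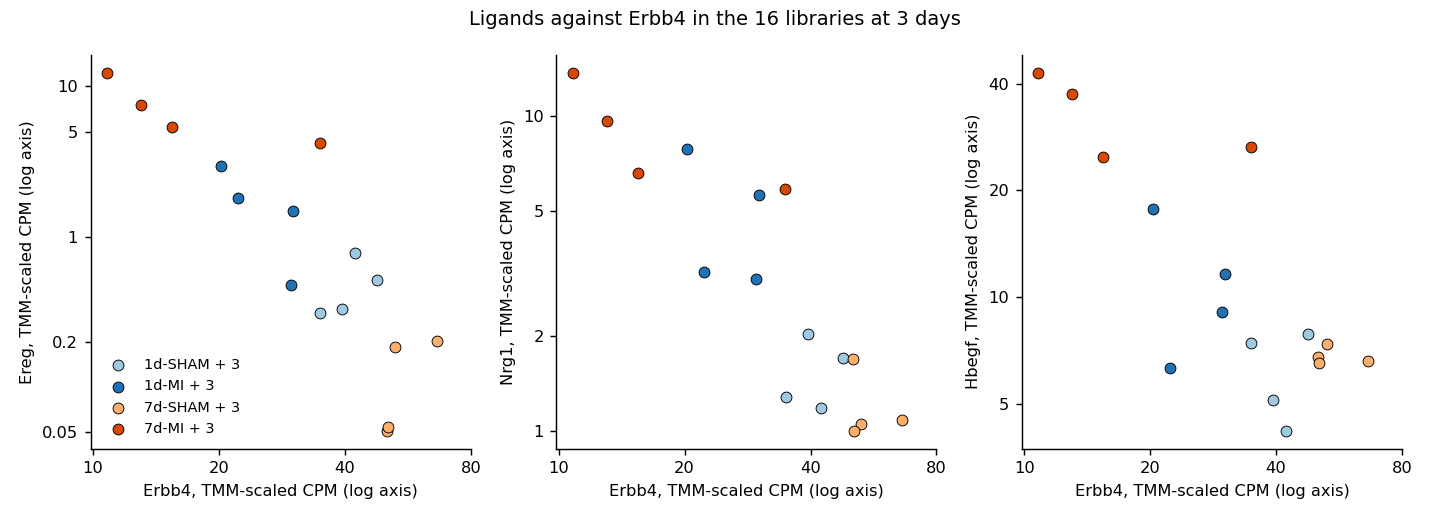
TMM-scaled CPM of *Ereg*, *Nrg1* and *Hbegf* against that of *Erbb4* in the 16 libraries at 3 days, both axes logarithmic, with colours for the 4 groups. The 7d-MI + 3 libraries lie at the upper left, apart from replicate 3 at an *Erbb4* of 34.8 CPM, and the shams at the lower right.

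The balance of the EGFR and ErbB4 genes was taken in each library as the ratio of their levels per kb of exon, which does not depend on the scaling. At 3 days *Egfr* over *Erbb4* was 0.152 to 0.2 in 1d-SHAM + 3, 0.262 to 0.481 in 1d-MI + 3, 0.198 to 0.289 in 7d-SHAM + 3 and 1.07 to 2.85 in 7d-MI + 3. Per kb of exon, *Erbb4* thus exceeded *Egfr* in all 12 libraries outside 7d-MI + 3, and *Egfr* exceeded *Erbb4* in all 4 libraries of that group. In replicate 3 of 7d-MI + 3 this order rests on the exon lengths. There *Egfr* was at 34.1 CPM and *Erbb4* at 34.8 CPM. At 21 days the ratio was 0.530 to 0.968 in 1d-SHAM + 21, 0.749 to 1.22 in 1d-MI + 21, 0.588 to 1.08 in 7d-SHAM + 21 and 1.83 to 4.39 in 7d-MI + 21. The 7d-MI + 21 libraries again lay above the other 9. The ratio of *Erbb2* to *Erbb4* was less distinct, at 0.206 to 0.279 in 7d-SHAM + 3 and 0.613 to 1.73 in 7d-MI + 3 but 0.601 to 1.14 in 1d-MI + 3.

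**Figure D4:**
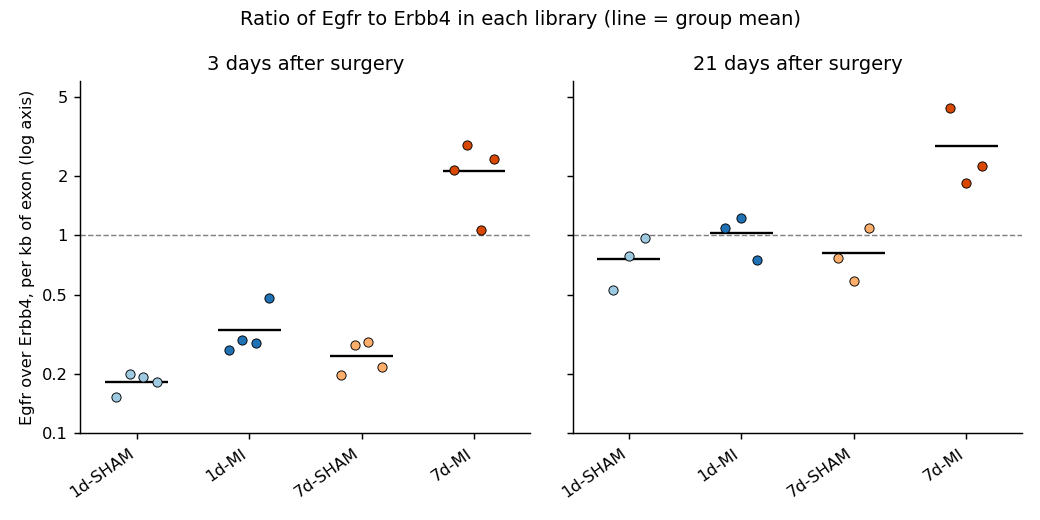
Ratio of *Egfr* to *Erbb4* per kb of exon in each library on a log axis, at 3 days (left, 4 libraries per group) and 21 days (right, 3 per group), with a line at the group mean and a dashed line at 1. Only the 7d-MI groups lie wholly above 1, at 1.07 to 2.85 and 1.83 to 4.39.

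At 21 days after surgery none of the 9 genes tested passed in any comparison. Of all 24646 genes, 0.0325% passed in 7d-MI + 21 against 1d-MI + 21, 0.0162% in 1d-MI + 21 against 1d-SHAM + 21, and 0.00% in 7d-MI + 21 against 7d-SHAM + 21, in 7d-SHAM + 21 against 1d-SHAM + 21 and when the MI effects at the 2 ages were subtracted. With edgeR, the number of the 9 genes at an unadjusted p under 0.05 was 2, 1, 4, 0 and 1 in these comparisons in that order, and DESeq2 and limma-voom also called 0 of them in each (unadjusted 3, 1, 4, 0 and 1, and 3, 1, 5, 0 and 1). Of all 24646 genes, edgeR had 1606, 3599, 4111, 442 and 927 at an unadjusted p under 0.05, and the counts of the 9 are to be read against these. The 4 genes with an unadjusted p under 0.05 between 7d-MI + 21 and 7d-SHAM + 21 did not overlap between the groups. They were chosen by p in these same libraries, so the separation adds nothing to the test, and the share of all genes without overlap was not counted. *Egfr* measured 31.1, 18 and 17.7 CPM in 7d-MI + 21 against 8.90, 10.05 and 15.4 CPM in 7d-SHAM + 21 (log2 fold change 0.96, SE 0.36, adjusted p = 0.248). *Nrg1* measured 5.14, 1.36 and 1.93 CPM against 0.490, 1.31 and 0.799 CPM (log2 fold change 1.71, SE 0.59, adjusted p = 0.239). The highest sham and the lowest MI library of *Nrg1* lay close to each other. *Hbegf* measured 19.7, 18.9 and 19.1 CPM against 14.7, 7.76 and 8.48 CPM (log2 fold change 0.90, SE 0.34, adjusted p = 0.255), and it passed when replicate 1 of 7d-SHAM + 21 was left out (adjusted p = 0.0171). The receptor-gene background was 0.611 counts per kb in replicate 1, and 6.09 and 5.82 in replicates 2 and 3, the shams then left. It is not scaled for library size, which was 85901570 counts in replicate 1 and 53799728 and 43792265 in replicates 2 and 3. In 7d-MI + 21 the background was 1.05 to 1.43 counts per kb. *Erbb4* measured 7.72, 10.7 and 8.68 CPM against 12.6, 18.6 and 15.5 CPM (log2 fold change -0.79, SE 0.31, adjusted p = 0.258).

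Against 1d-MI + 21, the 7d-MI + 21 libraries were again all higher in *Nrg1* and *Egfr* and all lower in *Erbb4*. Here too the share of all genes without overlap was not counted. *Nrg1* was 0.614, 0.545 and 0.623 CPM in 1d-MI + 21 (log2 fold change 2.24, SE 0.60, adjusted p = 0.311), *Egfr* 13.8, 12.6 and 11 CPM (0.84, SE 0.36, adjusted p = 0.697) and *Erbb4* 13.8, 11.3 and 16 CPM (-0.60, SE 0.31, adjusted p = 0.816). *Hbegf* overlapped between the MI groups, with 20.9, 22.6 and 16 CPM in 1d-MI + 21 and a log2 fold change of -0.05 (SE 0.34), whereas the 1d-SHAM + 21 libraries had 9.39, 11.3 and 5.37 CPM (log2 fold change of 1d-MI + 21 over 1d-SHAM + 21 1.19, SE 0.35, adjusted p = 0.284). *Areg* had 0 to 10 counts in every 21-day library. In 7d-MI + 21, replicate 1 was the highest in *Nrg1*, *Egfr* and *Ereg* (5.14, 31.1 and 1.53 CPM) and the lowest in *Erbb4* (7.72 CPM). It also had the highest summed fibroblast markers of the 12 libraries, 1672 CPM. Summed fibroblast markers were 1129 to 1672 CPM in 7d-MI + 21 and 419 to 882 CPM in the other 3 groups, and atrial markers ran from 96.0 to 673 CPM in 7d-MI + 21, from 4.47 to 411 CPM in 1d-MI + 21, from 34.9 to 212 CPM in 1d-SHAM + 21 and from 2.90 to 15 CPM in 7d-SHAM + 21. Their part in these differences was not tested.

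**Figure D5:**
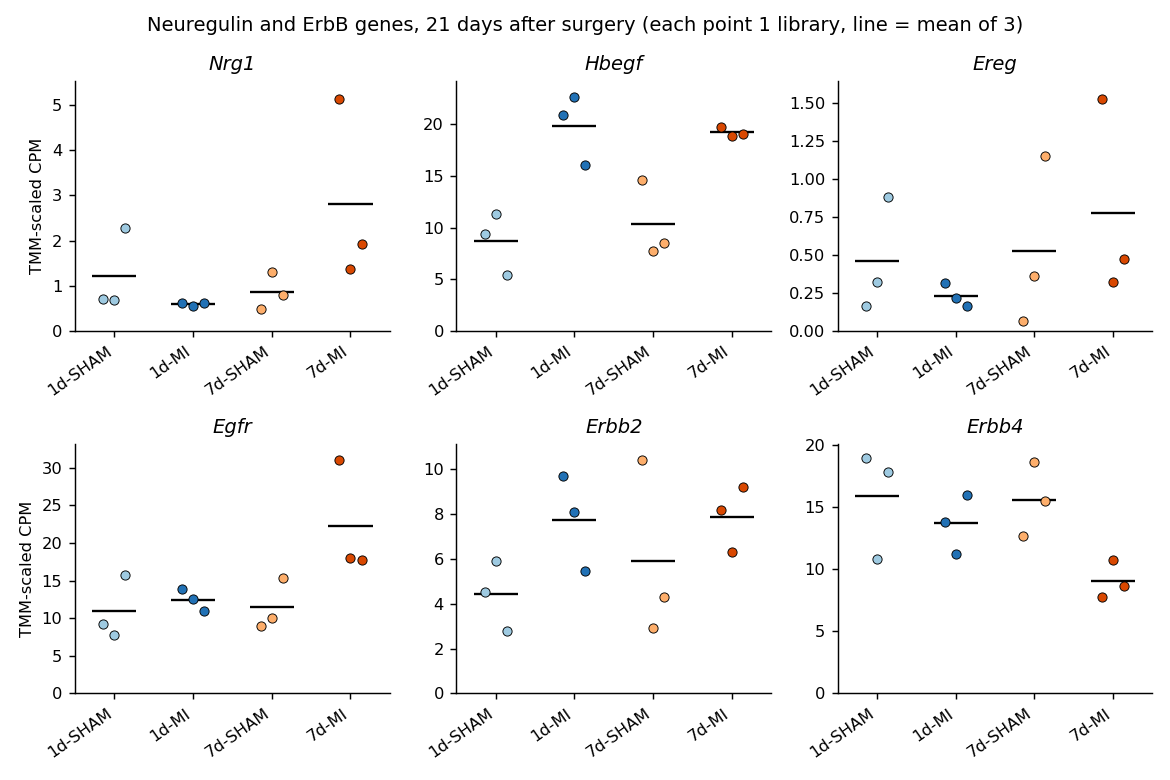
TMM-scaled CPM of 6 of the genes at 21 days after surgery, with 1 point per library, a line at the mean of 3 libraries and linear axes from 0. The 7d-MI points of *Egfr* (17.7 to 31.1 CPM) lie above, and those of *Erbb4* (7.72 to 10.7 CPM) below, all other groups, but no difference passed the test. The lowest 1d-SHAM point of *Erbb4*, at 10.8 CPM, lies close to the highest 7d-MI point.

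The genes around the receptors were read from 5 lists: other ligands, proteins that release the ligands, adaptors and kinases after the receptors, brakes on them, and genes that respond to ERK signaling. The release list held 10 genes. Of these, 6 rose and none fell in 7d-MI + 3 against 7d-SHAM + 3, where 19.8% of all genes rose and 14.2% fell. The median log2 fold change was 0.52 against 0.08 over all genes. *Adam12* (2.86, SE 0.22, adjusted p = 2.65e-08), *Adam9* (1.39, SE 0.18, adjusted p = 8.81e-06) and *Adam10* (0.88, SE 0.12, adjusted p = 1.30e-05), which encode membrane proteases, had the smallest p. After MI at day 1, *Adam9* (0.88, SE 0.18) and *Adam12* (0.82, SE 0.21) rose, where 4.10% of all genes rose, and no other gene of the list passed. The MI effect was larger at day 7 for *Adam12* (2.04, SE 0.29, adjusted p = 0.000350) and *Adam10* (0.68, SE 0.17, adjusted p = 0.0125). Of the other ligands, *Tgfa*, the gene of transforming growth factor alpha, rose in 7d-MI + 3 against 7d-SHAM + 3 (1.22, SE 0.28, adjusted p = 0.00175) and *Egf* fell (-0.96, SE 0.34, adjusted p = 0.0349). *Btc*, the gene of betacellulin, *Tgfa* and *Egf* were lower in the older of the MI groups (-1.03, -0.94 and -0.97), and *Tgfa* and *Btc* were lower in the older shams (-1.46 and -1.27). *Nrg3* was not tested at 3 days, with 0 counts in all 8 libraries of the day-7 groups.

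The brakes on the receptors include phosphatases of ERK, Sprouty and Spred proteins, Cbl ubiquitin ligases and *Errfi1*. Of 17 genes 9 rose and none fell in 7d-MI + 3 against 7d-SHAM + 3, beside 19.8% and 14.2% of all genes, with a median of 0.58. *Dusp6*, an ERK phosphatase, led (1.71, SE 0.19, adjusted p = 9.35e-07), before *Spred1* (0.95, SE 0.12) and *Cblb* (1.25, SE 0.18). After MI at day 1, where 4.10% of all genes rose and 4.36% fell, no brake rose, while *Lrig2* (-0.48, SE 0.13) and *Spry2* (-0.55, SE 0.15) fell. *Dusp6* (-1.27, SE 0.18, adjusted p = 0.000102), *Spred1*, *Spry4* and *Spry1* were lower in the older shams. The MI effect was larger at day 7 for 6 brakes, among them *Dusp6* (1.77, SE 0.26, adjusted p = 0.000352), *Spred1* (1.16, SE 0.17) and *Spry4* (1.02, SE 0.25), and smaller for none, where 9.01% of all genes had a larger and 4.07% a smaller effect. Of the 9 ERK-responsive genes 6 rose in 7d-MI + 3 against 7d-SHAM + 3, beside the same 19.8% of all genes, with a median of 1.47, led by *Myc* (2.42, SE 0.19, adjusted p = 3.08e-08), *Egr1* (4.31, SE 0.36) and *Etv4* (1.73, SE 0.29). After MI at day 1 *Myc* rose (0.62, SE 0.18, adjusted p = 0.0391) and *Ccnd1*, the gene of cyclin D1, fell (-0.86, SE 0.17, adjusted p = 0.00625).

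The 34 adaptors and kinases after the receptors had no common direction in 7d-MI + 3 against 7d-SHAM + 3. There, with 19.8% of all genes higher and 14.2% lower, 9 rose, led by *Pak1* (2.37, SE 0.27), *Gsk3b* (0.91, SE 0.17) and *Sos1* (0.85, SE 0.16), and 7 fell, among them *Grb2* (-0.70, SE 0.15) and *Akt2* (-0.67, SE 0.16), with a median of 0.02. In 1d-MI + 3 against 1d-SHAM + 3 none rose and 4 fell, beside 4.10% and 4.36% of all genes. Among the 4 were *Pik3ca*, *Nck1* and *Akt1* with log2 fold changes of -0.57, -0.41 and -0.53. Against 1d-MI + 3, 18 of the 34 were higher in 7d-MI + 3 and none lower, beside 19.4% and 23.5% of all genes, with a median of 0.43 beside -0.13. At 21 days edgeR called none of the genes of the 5 lists in any comparison. At an unadjusted p under 0.05 it had 8 of the 75 tested in 7d-MI + 21 against 1d-MI + 21, 18 in 1d-MI + 21 against 1d-SHAM + 21, 11 in 7d-MI + 21 against 7d-SHAM + 21, 0 between the shams and 5 in the difference of the MI effects. In the same order it had 1606, 3599, 4111, 442 and 927 of all 24646 genes. DESeq2 called 1 release gene between 1d-MI + 21 and 1d-SHAM + 21 and 1 brake between 7d-MI + 21 and 7d-SHAM + 21. Without replicate 1 of 7d-SHAM + 21, edgeR called 5903 of all genes in the latter comparison, among them 9 adaptors and kinases, 5 release genes, 3 brakes, 2 ERK-responsive genes and 1 other ligand. Replicates 2 and 3, the shams then left, had receptor-gene backgrounds of 6.09 and 5.82 counts per kb, against 0.611 in replicate 1. Their summed cardiomyocyte markers were 10350 and 7370 CPM, against 20758 CPM. The part of these differences in the calls was not tested.

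The genes whose levels ran most like those of a member were sought among 8739 or 8740 protein-coding genes with a mean of at least 5 CPM, by Pearson's r of log2(CPM + 0.5) over the 16 libraries at 3 days. These values describe libraries that share groups and scaling. *Ereg* ran closest to *Adam8*, *Gdf6* and *Myo7a* (r = 0.98, 0.98 and 0.97). *Erbb4* ran closest to *Ptgr2*, *Acsl1* and *Pptc7* (r = 0.96 each). *Egfr* ran closest to *Polr2a*, *Wdfy3* and *Fbn1* (r = 0.98, 0.98 and 0.97). *Nrg1* ran closest to *Cyp1b1*, *Col11a1* and *Ier3* (r = 0.96, 0.95 and 0.94), and *Hbegf* to *Uck2*, *Txndc5* and *Vgll3* (r = 0.97, 0.97 and 0.96). With the group means removed these r fell to between 0.26 for *Egfr* with *Wdfy3* and 0.94 for *Erbb4* with *Pptc7*.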

How the data were processed

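The files hold, for each library, raw gene counts, CPM and RPKM deposited by the authors, the last 2 also as log2. The authors made the counts per gene from reads on GRCm38, with Cufflinks 2.2.1, TopHat2 2.0.11 and Bowtie2 2.2.2 named in their processing notes. The counting tool and its strand setting were not given in the sources used here. The deposited CPM and RPKM served only to derive each gene's length in kb. The 3-day libraries were made with the TruSeq stranded total RNA kit and the 21-day libraries with ScriptSeqV2, on different instruments. Lanes of the same sample were summed for 2 libraries.

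Counts were fitted with edgeR 4.0.16 in R 4.3.3 (filterByExpr with a minimum count of 10, TMM, robust quasi-likelihood), with all 4 groups of a follow-up in 1 fit, and called at a Benjamini-Hochberg adjusted p under 0.05 over all genes tested. The fit gave biological coefficients of variation of 0.331 (3 days) and 0.567 (21 days) and was tested on simulated data. Alternatives used DESeq2 1.42.0 and limma 3.58.1. The members and gene lists were chosen with earlier results of these data known. From each list up to 3 genes of smallest p per direction were named, and some genes are not reported here.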

Additional observations from a re-analysis of the deposited data

Results flagged for a closer look

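In 4 of the 40 pairs of a gene and a 3-day group, 1 of the 4 libraries stood apart from the other 3 by Dixon's test, which chance alone does in about 1 of 20 groups. *Nrg1* measured 1.69 CPM in replicate 3 of 7d-SHAM + 3 and 1.00 to 1.09 CPM in the others. *Nrg2* measured 0.782 CPM in replicate 2 of 1d-SHAM + 3 and 0 to 0.0796 CPM in the others. *Erbb3* measured 8.98 CPM in replicate 2 of 1d-MI + 3 and 5.76 to 6.05 CPM in the others. *Erbb4* measured 66.3 CPM in replicate 1 of 7d-SHAM + 3 and 50.5 to 52.8 CPM in the others.

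The MI effect at 3 days differed between surgery at day 7 and at day 1 by an interaction test in 4 genes. The difference was 1.16 on the log2 scale for *Egfr*, 4.15 for *Ereg* and 1.41 for *Hbegf*, all larger at day 7, and -0.90 for *Erbb3*. With the title number as a random block *Egfr* alone passed.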

How the results depend on the processing

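The 53 log2 fold changes that passed, had an unadjusted p under 0.05 or had groups without overlap, with some others printed above, were followed through 1055 alternative values. Of these values 6 changed sign, none of them of a difference that passed. Outside the 53, *Nrg4* in 1d-MI + 3 against 1d-SHAM + 3 changed sign in 6 of 21 alternatives (-0.34 to 0.52). Its difference of the MI effects at 3 days did so in 1 of 28. Also outside the 53, *Nrg4* in 7d-MI + 3 against 7d-SHAM + 3 and *Erbb4* in 7d-MI + 3 against 1d-MI + 3 kept their sign. *Erbb3* in 7d-MI + 3 against 1d-MI + 3 became 0.017 with no filter and 0.11 with the lower-background 1d-MI + 3 pair alone, and ran from -0.23 to 0.10 with a library left out, above 0 without replicate 2 of either group. *Hbegf* in 7d-MI + 21 against 1d-MI + 21 ran from -0.17 to 0.072 with a library left out, above 0 without replicate 1 or 2 of 1d-MI + 21. The 7 genes called between 7d-MI + 3 and 7d-SHAM + 3 were 7 with each library left out. The count for 7d-MI + 3 against 1d-MI + 3 was 5 to 7 with a library left out and 4 under the stricter filter, which also tested fewer of the 10 genes. For 1d-MI + 3 against 1d-SHAM + 3 it was 1 to 3 with a library left out, 4 with no filter, 1 with limma-voom, 1 with the 2 groups alone, 0 with the title number as random block, 1 with the 1078 shams alone and 1 with the lower-background 1d-MI + 3 pair alone, an alternative chosen after seeing the data. For 7d-SHAM + 3 against 1d-SHAM + 3 it was 3 to 5 with a library left out, 3 with limma-voom, 2 with the random block and 3 with the 1103 shams alone. For the difference of the MI effect at 3 days it was 3 to 5 with a library left out, 6 with no filter, 6 with the 1103 shams, 1 with the random block, 2 with the 1078 shams and 2 with the lower-background pair. The causes were not tested. At 21 days it was 1 with no filter for 7d-MI + 21 against 1d-MI + 21 (*Nrg1*), 0 to 2 with a library left out for 7d-MI + 21 against 7d-SHAM + 21 (*Hbegf* and *Erbb2*, without replicate 1 of 7d-SHAM + 21), and 0 otherwise. Replicate 1 had the lowest receptor-gene background of 7d-SHAM + 21.

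Replicate numbers are shared between 21-day groups. Deviations from the group means correlated at -0.35 to 0.44 over 15 same-numbered pairs. Pairs of different number were not correlated for comparison, so these values cannot decide whether the numbers pair the libraries. With a replicate block the number of the genes called was 0 in all 5 comparisons.

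All genes called at 21 days with DESeq2 numbered 204, 334, 988, 0 and 41 in the 5 comparisons, against 8, 4, 0, 0 and 0 with edgeR. The cause of this gap was not tested.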
